A study of Mus musculus with 17 samples.

Results

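The genes described here are 7 subunits of the transcription factor AP-1 (Fos, Fosb, Fosl1, Fosl2, Jun, Junb and Jund), the related factor Atf3, and 2 other immediate-early genes, Egr1 and Ier3. They were taken by the gene name printed on the array, which gave 11 probes for 10 of 31588 names, 2 of them for Fosl2. The names were chosen by results of these same arrays: their levels in the 5 groups and the differences between groups were known when the set was drawn up. These levels and differences are therefore descriptions and carry no test. The study hybridised RNA of liver cells to 17 single-colour Agilent arrays. All groups came from mice that carried Foxl1-CRE and RosaYFP and were 6 to 10 weeks old. The Cre recombinase is driven by Foxl1, so the reporter marks cells that have used this gene and their offspring. Undifferentiated adult hepatic progenitor cells gave 4 arrays. The hepatocyte condition, progenitors differentiated in vitro toward hepatocytes, gave 4 arrays, and the cholangiocyte condition, the same toward the epithelium of bile ducts, gave 3. Primary cells were hepatocytes (4 arrays) and cholangiocytes (2 arrays, numbered 3 and 4). The labels name no differentiation agent and no culture or isolation time. They also do not say whether animals were pooled and whether replicates are separate animals or cultures, so every error here covers only the spread between these arrays. The stated comparison was of cells differentiated in vitro with primary cells.

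AP-1 is a dimer of a Jun protein with a Fos, Jun or ATF protein, joined through leucine zippers, that binds DNA through basic regions. Fos, Fosb, Jun, Junb, Atf3, Egr1 and Ier3 belong to the immediate-early genes, whose transcription starts within minutes of growth factor, stress or injury signals without new protein synthesis, while Fosl1 and Fosl2 respond later and Jund is present in resting cells. In the liver, Jun supports hepatocyte survival and regeneration after loss of tissue, and Fos, Jun, Atf3 and Egr1 are known to be induced after partial hepatectomy.

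The promoters of Fos, Fosb, Jun and Atf3 are shown because these 4 genes had the largest differences between the cholangiocyte condition and undifferentiated cells. Each stretch holds the 140 bases before the RefSeq start site (GRCm38.p6), read 5′ to 3′ on the strand of the gene. Capitals mark matches to the letters searched, and no other meaning is attached to them. RefSeq promoters were matched for 8 of the 10 genes, and those of Fosl1 and Egr1 were not matched.
Fos, chr12:85473750-85473889, plus strand: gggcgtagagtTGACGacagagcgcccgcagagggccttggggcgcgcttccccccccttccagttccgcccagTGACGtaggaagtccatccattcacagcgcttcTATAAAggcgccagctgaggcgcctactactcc
Fosb, chr7:19310046-19310185, minus strand: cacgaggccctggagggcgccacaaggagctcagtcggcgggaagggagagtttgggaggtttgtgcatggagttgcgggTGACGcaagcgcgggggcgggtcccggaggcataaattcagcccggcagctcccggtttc
Jun, chr4:95052223-95052362, minus strand: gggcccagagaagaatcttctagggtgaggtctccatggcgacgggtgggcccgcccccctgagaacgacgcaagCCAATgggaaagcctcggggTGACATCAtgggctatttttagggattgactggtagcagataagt
Atf3, chr1:191183334-191183473, minus strand: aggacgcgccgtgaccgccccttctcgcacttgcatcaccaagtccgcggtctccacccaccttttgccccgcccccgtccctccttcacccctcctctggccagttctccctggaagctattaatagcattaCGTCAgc

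Both strands were searched for TGACG, the core of the cyclic AMP response element, and for TGACATCA, the AP-1-like letters known from the Jun promoter. The AP-1 site was searched as TGANTCA. Further searches were for CCAAT, the box bound by NF-Y. The TATA box was searched as TATAAA, and the CArG box, bound by serum response factor, by the usual pattern of that name. TGACG stood at -129 and -66 in Fos, at -60 in Fosb, at -106 in Junb and, on the opposite strand (CGTCA), at -7 in Atf3, counted from the start site to the first base of the match as printed. Of 32851 promoters of the same length, 12.8% held it. Jun held TGACATCA at -45, which 2.28% of the promoters held, and CCAAT at -65, which 23.4% held. Junb held CCAAT at -36. Fos held TATAAA at -33, which 7.21% held. TGANTCA and the CArG box, in 3.99% and 0.861% of the promoters, were not matched in this window in any of the 8. A match is a description of the letters only.

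Per the coordinates in the headers (mm9), the Fos probe lies at chr12:86817900-86817959, that of Fosb at chr7:19888168-19888227, that of Jun at chr4:94716928-94716987 and that of Atf3 at chr1:192994547-192994606. Exons and UTRs of that build were not used here. Each gene had 1 spot per array for its probe, except Fos with 10. A level is the log2 intensity of a probe minus that of its array's 75th percentile. A level compares arrays for 1 probe and not one probe with another. Overlap of arrays was read from these levels, and for some genes it differed when arrays were scaled to their median. All 10 genes passed the filter on dim probes, and all but Fosl1 and Ier3 were well above background on every array for the probe used. Differences are log2, first group minus second, ± SE of a limma model fitted to all 17 arrays. The threshold was an adjusted p of 0.05 (Benjamini-Hochberg, 25977 genes tested).

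The 75th percentile of intensity was 1867.9 to 2781.2 as group means except in primary hepatocytes, where it was 803.7. The number of probes above background ran from 23905 to 29257. The labels were compared with marker lists. The 12 hepatocyte markers averaged 7.43 in primary hepatocytes and 0.57 in the hepatocyte condition, whose arrays ranged from -2.5 to 3.6. The 12 cholangiocyte markers averaged 1.84 in primary cholangiocytes, and in the cholangiocyte condition (-1.17) they were not above undifferentiated cells (-0.95). Epcam, a bile duct surface marker, was at 3.05 and 2.22 in primary cholangiocytes and between -7.27 and -6.24 in the cholangiocyte condition. The bile duct keratin Krt19 was at 7.29 and 6.68 in primary cholangiocytes and at 6.72, 5.85 and 6.99 in the cholangiocyte condition, and Krt7 at 5.49 and 5.46 against 3.49, 3.35 and 3.51. Primary hepatocytes also carried markers of other liver cells: all 10 endothelial markers were above background on each of the 4 arrays, with a mean of -2.04 (range -2.39 to -1.66) against -7.01 (-7.39 to -6.68) in undifferentiated cells. Red blood cell markers averaged -0.72 against -7.06, and leukocyte and Kupffer cell markers -2.43 against -4.05. In such bulk RNA, fewer cells of a type and less RNA per cell cannot be told apart.

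**Figure D1:**
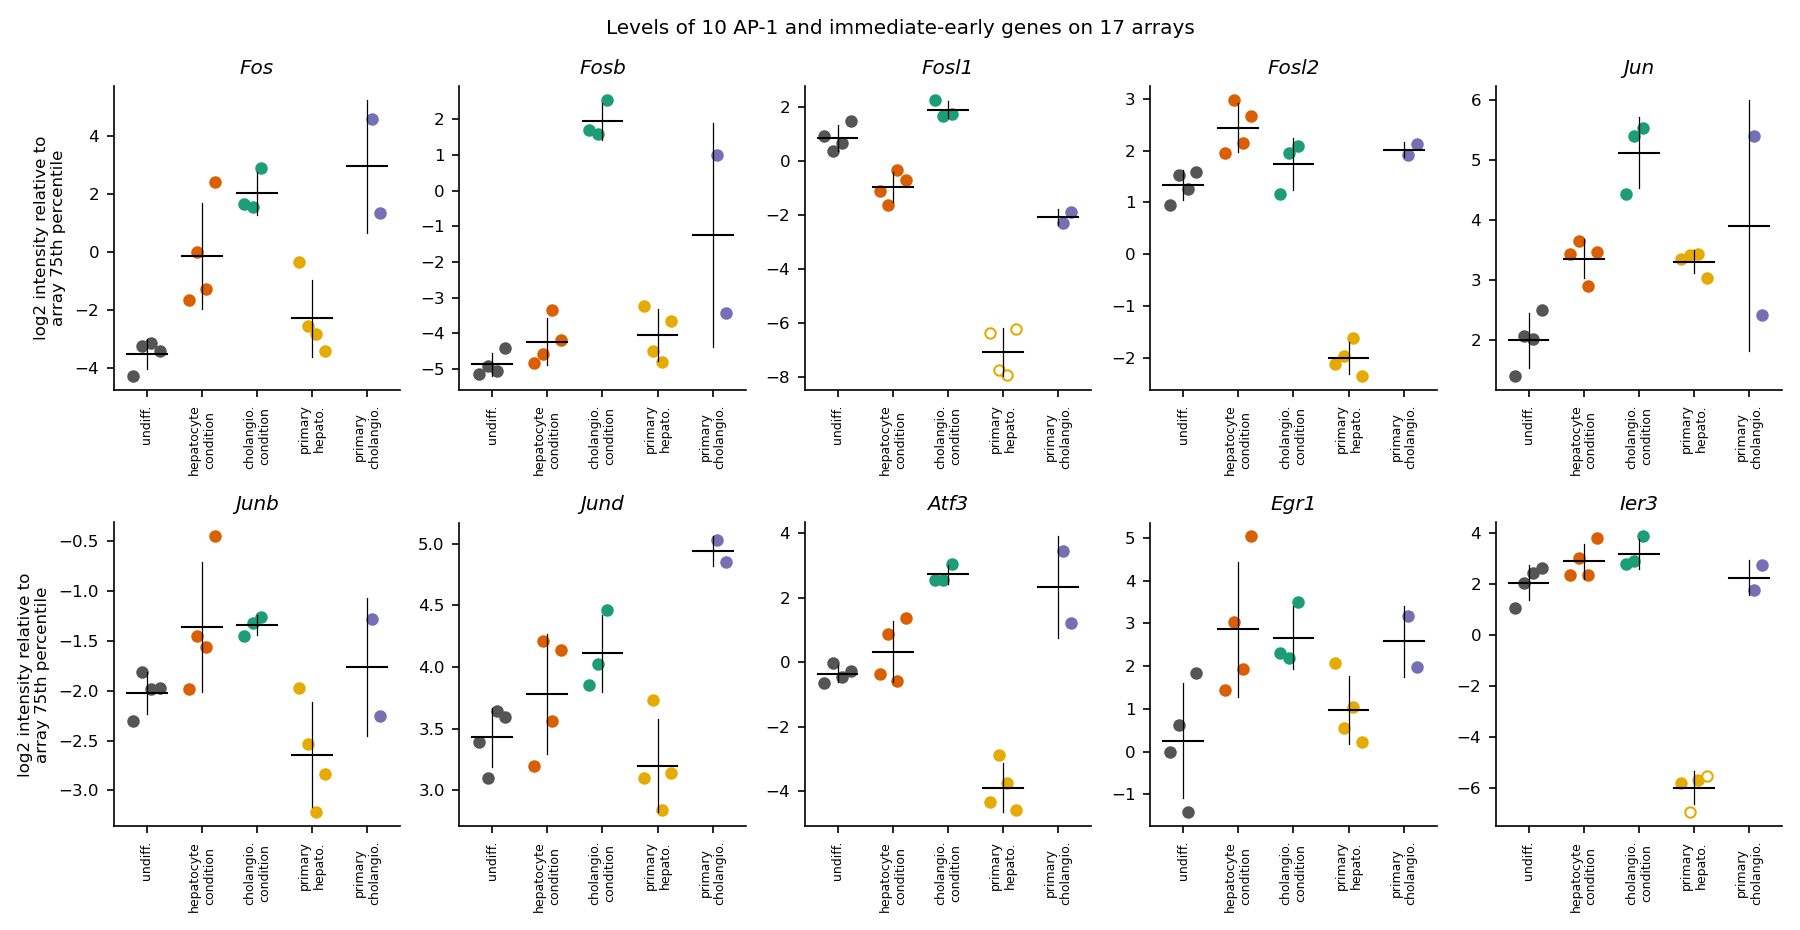
Levels of the 10 genes on each of the 17 arrays (log2, with the 75th percentile at 0), by group. Points are arrays in the order of their replicate number, open points were not well above background, horizontal lines are means and vertical lines ± 1 SD. Fosb stood between 1.60 and 2.55 in the cholangiocyte condition against -5.13 to -4.42 in undifferentiated cells, and Fosl1 and Ier3 were lowest in primary hepatocytes.

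Fos, the founding member of its family, which dimerises with Jun proteins, was lowest in undifferentiated cells and spread widely in most other groups. Its levels in undifferentiated cells, arrays 1 to 4, were -4.27, -3.25, -3.14 and -3.42. In the hepatocyte condition they were -1.64, 0.00, -1.26 and 2.40, and in the cholangiocyte condition 1.64, 1.55 and 2.89. Both sets lay above undifferentiated cells without overlap. Primary hepatocytes had -0.35, -2.56, -2.81 and -3.41, with array 1 far above the other 3, and primary cholangiocytes had 4.58 and 1.33. Fos was thus higher than in undifferentiated cells by 3.39 ± 0.91 in the hepatocyte condition. Fos was higher than in undifferentiated cells by 5.54 ± 0.98 in cells of the cholangiocyte condition (46.6-fold) and by 6.47 ± 1.11 in primary cholangiocytes (88.8-fold). These 3 differences share the same 4 undifferentiated arrays. Primary hepatocytes overlapped undifferentiated cells (1.23 ± 0.91). Within slides that held both groups, Fos in the hepatocyte condition exceeded undifferentiated cells by 3.25, 6.67 and 1.5, and in the cholangiocyte condition by 6.14 and 4.78.

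Fosb, another activating Fos protein, had the clearest separation of the cholangiocyte condition. Undifferentiated cells had -5.13, -4.90, -5.04 and -4.42, and the hepatocyte condition -4.82, -4.57, -3.33 and -4.19, which overlapped. The cholangiocyte condition had 1.70, 1.60 and 2.55. Its mean exceeded undifferentiated cells by 6.83 ± 0.76, or 114-fold, while in the hepatocyte condition the difference was 0.65 ± 0.71. Primary hepatocytes had -3.24, -4.49, -4.81 and -3.65, which overlapped both of those groups. Primary cholangiocytes disagreed with each other, at 0.99 and -3.44, and both lay below the cholangiocyte condition (difference 3.18 ± 0.91). Within slides, the cholangiocyte condition exceeded undifferentiated cells by 7.46 and 6.74.

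Fosl1 encodes Fra-1, a Fos protein without the activation domain of Fos that is known from migrating and dividing cells. It was the gene with the most ordered levels: each of the 5 groups was separated from the next without overlap. With median scaling the 2 highest groups overlapped: undifferentiated array 4 (6.16) lay above arrays 2 and 3 of the cholangiocyte condition (5.83 and 5.97). The cholangiocyte condition was highest (2.25, 1.66 and 1.73), followed by undifferentiated cells (0.90, 0.35, 0.66 and 1.48). The hepatocyte condition came next (-1.12, -1.64, -0.35 and -0.73), then primary cholangiocytes (-2.30 and -1.88). Primary hepatocytes were last and not well above background on any of their 4 arrays. The hepatocyte condition minus undifferentiated cells was -1.81 ± 0.40, and the cholangiocyte condition differed from them by 1.03 ± 0.44. Fosl1 was at least 118-fold lower in primary hepatocytes than in undifferentiated cells, and at least 33.7-fold higher in the hepatocyte condition than in primary hepatocytes. For these bounds each dim array counted at the lowest signal among its detected probes, or at the measured signal where that was greater. They hold for the processed signals: with normexp background correction the log2 differences were -4.13 and 2.43, which are smaller than these bounds. In the cholangiocyte condition it was higher than in primary cholangiocytes by 3.97 ± 0.52, or 15.7-fold.

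Fosl2 encodes Fra-2, the other Fos protein of that type. By its brighter probe, the hepatocyte condition (1.96, 2.98, 2.14 and 2.67) lay above undifferentiated cells (0.94, 1.53, 1.26 and 1.58), with a difference of 1.11 ± 0.27. The cholangiocyte condition (1.17, 1.95 and 2.09) overlapped undifferentiated cells, and primary cholangiocytes (1.92 and 2.12) did not. With median scaling both the hepatocyte condition and primary cholangiocytes overlapped them. Undifferentiated array 4 (6.26) then lay above arrays 1 and 3 of the hepatocyte condition (6.00 and 6.14) and primary cholangiocyte array 3 (6.09). Primary hepatocytes (-2.12, -1.96, -1.61 and -2.35) were below every other group, with a difference of -3.34 ± 0.27 from undifferentiated cells. The hepatocyte condition exceeded them by 4.45 ± 0.27, or 21.8-fold. The other Fosl2 probe was dim in all groups (means -6.13 to -4.26) and gave other sizes: 0.1 for the hepatocyte condition and 1.08 for the cholangiocyte condition against undifferentiated cells, and 0.89 for the hepatocyte condition against primary hepatocytes, where it was above background on 1 of 4 arrays. The probes lie on mm9 at chr5:32460076-32460135 (brighter) and chr5:32455088-32455147.

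Jun, the main activating partner in AP-1 dimers, was lowest in undifferentiated cells, at 1.41, 2.07, 2.02 and 2.51. The hepatocyte condition had 3.43, 3.65, 2.91 and 3.47, and primary hepatocytes had almost the same levels, 3.36, 3.42, 3.43 and 3.03. The cholangiocyte condition was highest, at 4.44, 5.40 and 5.53. None of these 3 groups overlapped undifferentiated cells. With median scaling, undifferentiated array 4 (7.19) lay above array 3 of the hepatocyte condition (6.92) and primary hepatocyte arrays 1 and 4 (7.09 and 7.08). The cholangiocyte condition was higher by 3.12 ± 0.52 (8.71-fold), and the differences were 1.36 ± 0.48 in the hepatocyte condition and 1.31 ± 0.48 in primary hepatocytes. Primary cholangiocytes again disagreed, at 5.39 and 2.43, the lower of which lay inside the undifferentiated range. Between the hepatocyte condition and primary hepatocytes the difference in Jun was 0.05 ± 0.48, and -0.04 to 0.42 over the alternatives.

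Junb can oppose Jun on some promoters. Its group means spanned 1.30, the narrowest span of the 10 genes, from -2.64 in primary hepatocytes to -1.34 in the cholangiocyte condition. The levels were -2.30, -1.81, -1.98 and -1.97 in undifferentiated cells and -1.45, -1.32 and -1.26 in the cholangiocyte condition. In the hepatocyte condition 3 arrays lay between -1.98 and -1.45 and array 4 at -0.45, the array on which Fos was also highest. Against primary hepatocytes (-1.97, -2.53, -3.22 and -2.84) the hepatocyte condition was higher by 1.28 ± 0.33, with overlap between arrays.

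Jund, the Jun protein of resting cells, was highest in primary cholangiocytes (5.03 and 4.85), above each array of the other groups. The difference from undifferentiated cells (3.39, 3.10, 3.64 and 3.59) was 1.51 ± 0.31. The hepatocyte condition (3.2, 4.21, 3.56 and 4.14) and primary hepatocytes (3.10, 3.73, 2.84 and 3.14) overlapped undifferentiated cells, and the cholangiocyte condition (3.85, 4.02 and 4.46) lay above them by 0.68 ± 0.27.

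Atf3, a stress-induced partner of Jun that often represses, was lower on each primary hepatocyte array than on any array of the other groups. Primary hepatocytes had -4.35, -2.89, -3.76 and -4.59, against -0.66, -0.03, -0.47 and -0.28 in undifferentiated cells, a difference of -3.54 ± 0.52. The cholangiocyte condition had 2.56, 2.56 and 3.05, higher than undifferentiated cells by 3.09 ± 0.56 (8.49-fold). Primary cholangiocytes had 3.44 and 1.22, higher by 2.69 ± 0.64. The hepatocyte condition was mixed: arrays 1 and 3 (-0.37 and -0.60) lay in the undifferentiated range, and arrays 2 and 4 (0.87 and 1.37) above it. Against primary hepatocytes it was higher by 4.22 ± 0.52, or 18.6-fold, without overlap. On slides 1 and 5, which held both groups, the cholangiocyte condition exceeded undifferentiated cells in Atf3 by 3.09 and 3.03.

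Egr1, a zinc-finger factor induced through serum response factor, varied inside groups. Undifferentiated cells had 0.00, 0.62, -1.42 and 1.83, and the hepatocyte condition 1.44, 3.03, 1.94 and 5.04, so that the lowest array of the condition overlapped the highest undifferentiated array. Their difference was 2.61 ± 0.78. The cholangiocyte condition (2.31, 2.20 and 3.51) and primary cholangiocytes (3.17 and 1.98) lay above undifferentiated cells without overlap, with differences of 2.41 ± 0.85 and 2.32 ± 0.96. With median scaling both overlapped: undifferentiated array 4 (6.51) lay above array 2 of the cholangiocyte condition (6.36) and primary cholangiocyte array 4 (6.15). Primary hepatocytes (2.07, 0.56, 1.05 and 0.23) differed from undifferentiated cells by 0.72 ± 0.78.

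Ier3, a survival gene also known as IEX-1, had group means between 2.05 and 3.19 outside primary hepatocytes, where it was close to background. Undifferentiated cells had 1.08, 2.05, 2.42 and 2.65, the hepatocyte condition 2.38, 3.03, 2.37 and 3.83, and the cholangiocyte condition 2.80, 2.90 and 3.88. Primary cholangiocytes had 1.79 and 2.74. Primary hepatocytes had -5.81, -6.96, -5.69 and -5.54 and were well above background on 2 of 4 arrays. The hepatocyte condition exceeded them by 8.90 ± 0.45, and primary hepatocytes minus undifferentiated cells was -8.05 ± 0.45. These sizes rest on signals near background: with normexp background correction they were 5.92 and -5.07. The part of the other liver cells in the primary hepatocyte arrays in these differences was not tested.

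**Figure D2:**
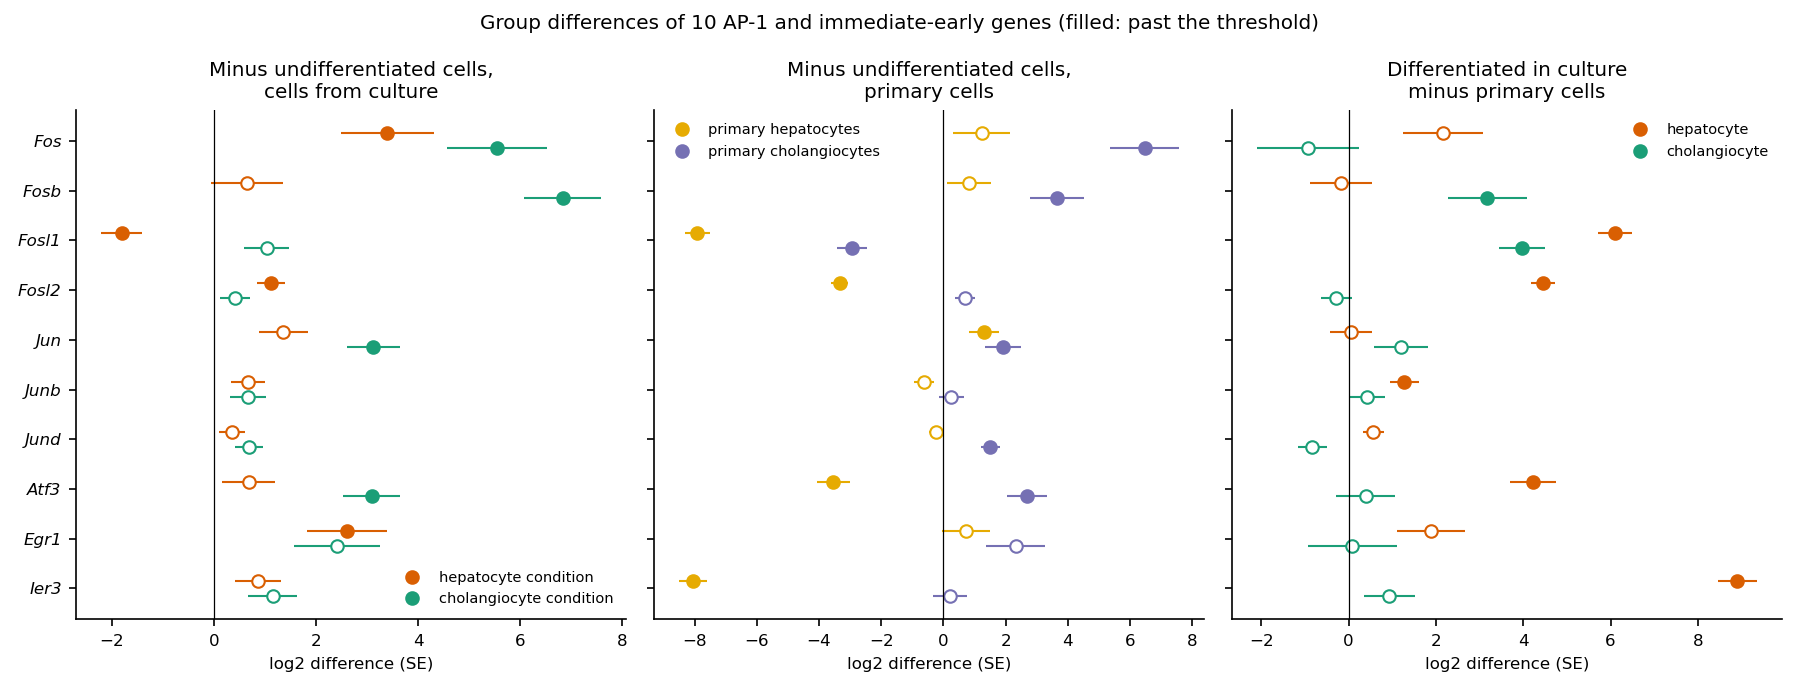
Log2 differences ± SE of the 10 genes in 6 comparisons, from the model of all 17 arrays. Filled points passed the threshold over 25977 genes, open points did not. In the left panel Fosl1 stands at -1.81 for the hepatocyte and 1.03 for the cholangiocyte condition, and in the middle panel Fosl1, Fosl2, Atf3 and Ier3 of primary hepatocytes stand at or below -3.34.

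Against undifferentiated cells, 3 of the 10 genes were past the threshold as higher in the hepatocyte condition (Fos, Fosl2 and Egr1) and 1 as lower (Fosl1), where 15.3% of all genes passed, 7.62% as higher and 7.7% as lower. Of all calls, 49.7% were higher, and 28.7% with median scaling. Nothing is read from such shares here or below, since the genes were chosen with these contrasts known. The median difference was 0.77, against 0.07 over all genes. Arrays did not overlap for 4 of the 10, against 21% of all genes. This count also depends on the scaling: with median scaling, undifferentiated array 4 lay inside the range of the hepatocyte condition for Fosl2 and Jun. Fos was no longer past the threshold without undifferentiated array 1 (difference 3.14), without array 4 of the condition (2.55) or with slide as a block (3.44). Fosl2 was lost when arrays were scaled to their median (0.85) and with the mean of its probes (0.60). Egr1 was lost without undifferentiated array 1, 2 or 3, without array 2 or 4 of the condition (1.88 without array 4), with median scaling (2.35), with replicate number as a block and with only the 2 groups compared (2.61 each). Of the 4, Fosl1 alone kept its call in each of 18 alternatives. Jun (1.36) passed with normexp background correction (1.38), with only these 2 groups in the model and in the authors' deposited table (1.45).

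In the cholangiocyte condition against the same undifferentiated arrays, 4 genes were past the threshold as higher (Fos, Fosb, Jun and Atf3) and 0 as lower, where 1.38% of all genes passed, 0.785% as higher and 0.597% as lower. Of all calls here, 56.8% were higher, 37.3% with median scaling and 43.3% with quantile normalization. All 10 means were higher, with a median difference of 1.78 against 0.14 over all genes, and arrays did not overlap for 9 of 10, against 13.3% of all genes. That count depends on the scaling. With median scaling, undifferentiated array 4 lay inside the range of the cholangiocyte condition for Fosl1, Jund, Egr1 and Ier3. Here same-numbered arrays of the 2 groups deviated together over all genes (r = 0.385, 0.281 and 0.318), and with replicate number as a block in the model of all arrays Fosb (6.73), Jun (3.03) and Atf3 (3.03) stayed past the threshold and Fos (5.54) did not. In a model of these 2 groups alone with that block, 0 of 25977 genes were past the threshold (limma, 4697 at an unadjusted p under 0.05), and the differences were 5.58 for Fos, 6.98 for Fosb, 3.29 for Jun and 3.11 for Atf3. Without array 3 of the condition Fos (5.11) and Atf3 (2.92) were lost, and without array 2 Jun (2.99) and Atf3 (3.17). Fos was also lost with slide as a block (5.80).

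Against primary hepatocytes, 5 genes were past the threshold as higher in the hepatocyte condition (Fosl1, Fosl2, Junb, Atf3 and Ier3) and 0 as lower, where 59.7% of all genes passed, 26% as higher and 33.7% as lower. Arrays did not overlap for 4 of the 10, against 56.3% of all genes. The median was 2.02, against -0.33 over all genes. These 5 kept their calls in each of 18 alternatives. Fos (2.16 ± 0.91) and Egr1 (1.89 ± 0.78) lay near the threshold and passed it without primary hepatocyte array 1 (2.80 and 2.25) and without array 1 or 3 of the condition, among other settings. Jund passed it without array 1 of the condition (0.77) or primary hepatocyte array 2 (0.75). It also passed with normexp background correction (0.67), median scaling (0.76) or quantile normalization (0.93), and in the authors' deposited table (0.93). Fos and Egr1 differed in sign between slides: on slide 4 the condition minus primary hepatocytes was -0.91 for Fos and -0.13 for Egr1, against 5.81 and 4.81 on slide 3.

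Between the cholangiocyte condition and primary cholangiocytes, 2 genes were past the threshold as higher (Fosb and Fosl1) and 0 as lower, where 19.6% of all genes passed, 11.9% as higher and 7.64% as lower. Arrays did not overlap for 4 of the 10, against 41.9% of all genes. The median was 0.41, against 0.17 over all genes. With 2 primary arrays, much rests on each of them. Without primary array 4, the one low in Fosb, the difference in Fosb was 0.96 and not past the threshold, and it was also lost without array 3 of the condition (2.88), with the replicate block (3.24), with only the 2 groups compared (3.18) and in the authors' deposited table (3.17). Without primary array 3, Jun was past it (2.69). Fosl1 kept its call in each alternative. Jund passed as lower with normexp background correction (-0.83) and quantile normalization (-1.05), and Ier3 as higher with the replicate block (1.58).

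Primary hepatocytes against undifferentiated cells had 1 gene past the threshold as higher (Jun) and 4 as lower (Fosl1, Fosl2, Atf3 and Ier3), where 64.2% of all genes passed, 37.6% as higher and 26.6% as lower. Arrays did not overlap for 5 of the 10, against 59.4% of all genes. With median scaling Jun overlapped and Junb no longer did. The higher share of all calls was 58.6%, 45% with median scaling and 47% with quantile normalization. The 4 lower genes kept their calls in each alternative, and Jun lost its call without undifferentiated array 1 (1.11), without primary hepatocyte array 1, 2 or 3 (1.29, 1.27 and 1.27), and with median scaling (0.86) or quantile normalization (1.04). Junb passed as lower without primary hepatocyte array 1 (-0.85), with median scaling (-1.07) and in the authors' deposited table (-0.69). Primary cholangiocytes against undifferentiated cells had 5 genes past the threshold as higher (Fos, Fosb, Jun, Jund and Atf3) and 1 as lower (Fosl1), where 19% passed, 8.5% as higher and 10.6% as lower. Here arrays did not overlap for 7 of the 10, against 35.5% of all genes, and 44.6% of all calls were higher, 32.8% with median scaling. Under that scaling, undifferentiated array 4 lay inside the range of primary cholangiocytes for Fosl2 and Egr1. Without primary array 3, the differences in Fosb (1.43), Jun (0.43) and Atf3 (1.59) were not past the threshold. Fosb was also lost with slide as a block (3.43), with only the 2 groups compared (3.65) and in the authors' deposited table (3.43), and Atf3 with only the 2 groups compared (2.69). Jun was lost in 9 of 16 alternatives, among them without undifferentiated array 1, 2 or 3 (1.71, 1.93 and 1.92). Fos, Fosl1 and Jund kept their calls in each alternative. All comparisons with undifferentiated cells share these 4 arrays.

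**Figure D3:**
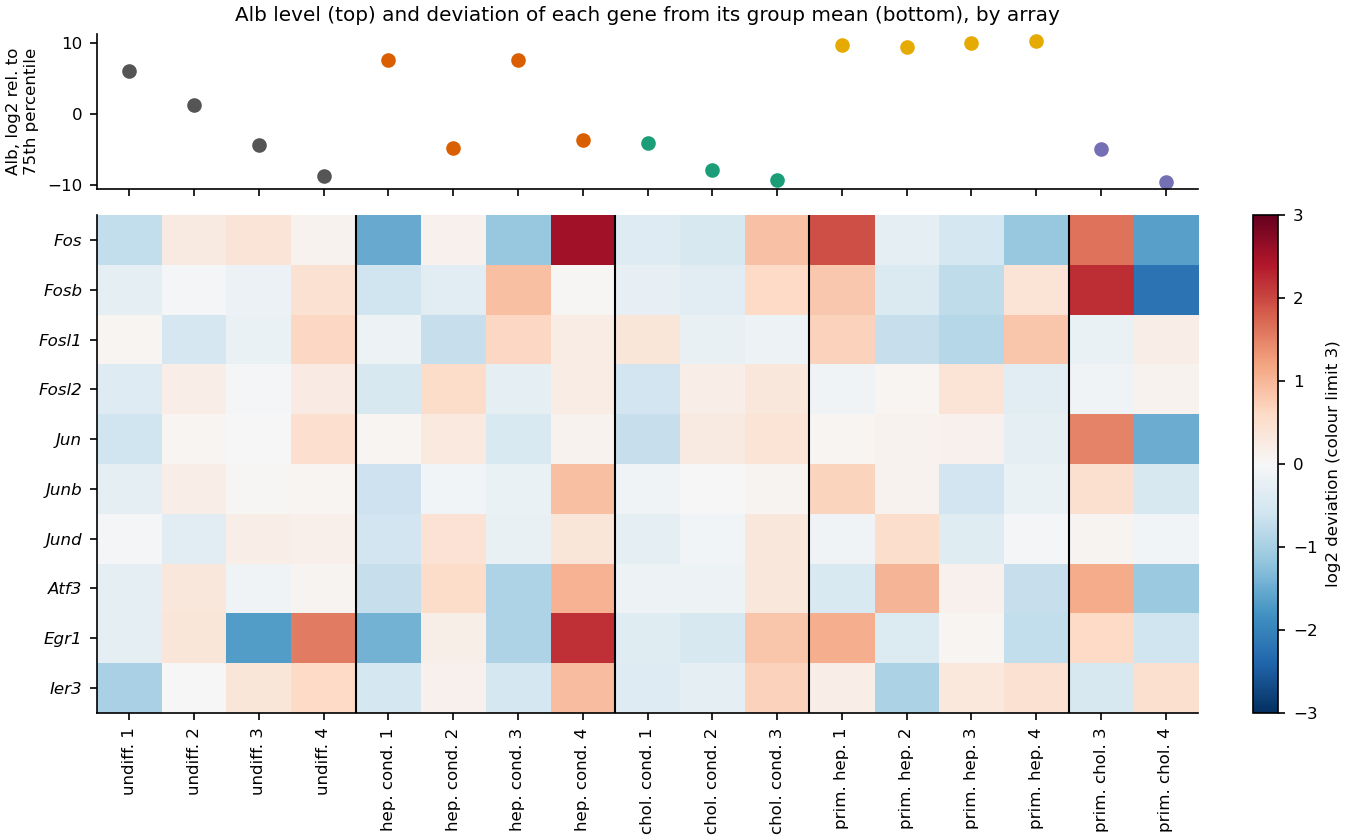
Deviation of each gene from its group mean on each array (bottom, log2, colour scale from -3 to 3) and the level of Alb on the same arrays (top, log2 relative to the 75th percentile). In the hepatocyte condition array 4 is above the group mean for every gene, and the highest of its group for Fos, Junb, Atf3, Egr1 and Ier3. Arrays 1 and 3, with Alb at 7.62 and 7.58, are below the group mean for most genes.

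Arrays of 1 group differed in many of the 10 genes at once. Arrays 2 and 4 of the hepatocyte condition held the 2 highest values for 8 of the 10 genes, all but Fosb and Fosl1. Array 1 was lowest for 6. The level of Alb, the main plasma protein made by hepatocytes, separated the same arrays: 7.62 and 7.58 on arrays 1 and 3, and -4.76 and -3.65 on arrays 2 and 4. Ttr, another hepatocyte product, was at 6.45 and 6.13 on arrays 1 and 3 and at 4.32 and 1.97 on arrays 2 and 4. In undifferentiated cells Alb was at 6.00, 1.26, -4.44 and -8.74 on arrays 1 to 4, and array 1 was lowest for 7 of the 10 genes while array 4 was highest for 6. The part of hepatocyte RNA in these values was not tested.

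Array 3 of the cholangiocyte condition was highest for 9 of 10 genes, all but Fosl1. Of primary cholangiocytes, array 3 exceeded array 4 for 7 of 10, all but Fosl1, Fosl2 and Ier3. Markers of other cells differed between these 2 arrays: the stellate cell and fibroblast list averaged -5.07 on array 3 and -7.53 on array 4, and the hepatocyte list -2.71 and -4.81. The endothelial list was at -5.54 and -4.95, and the leukocyte and Kupffer list at -3.19 and -3.04. Their part in the values of the 10 genes was not tested. Hspa1a, an inducible heat shock gene, was at 1.94 on primary cholangiocyte array 3 and at -2.67 on array 4, and between -4.94 and -0.96 on all 15 arrays of the other groups. The whole list of 16 heat shock genes ran the other way, with a mean of 2.97 on primary cholangiocyte array 3 and 3.72 on array 4. Deviations from the group means, over 17 arrays, were most alike for Fos and Junb (Pearson r = 0.92), followed by Fos and Egr1 (0.75), Fosb and Jun (0.72), and Jun and Atf3 (0.70). The r of Fosb and Jun and that of Jun and Atf3 rest largely on the 2 primary cholangiocyte arrays, whose deviations are equal and opposite. These arrays stood at 0.99 and -3.44 for Fosb, at 5.39 and 2.43 for Jun and at 3.44 and 1.22 for Atf3. Fosl1 went the other way from Atf3 (-0.53) and Fosl2 (-0.50). Much of both these r rests on the 4 primary hepatocyte arrays, where Fosl1 was not well above background. These r describe arrays that share groups, slides and scaling, and they carry no test.

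Other genes of the pathway came from 6 lists, drawn up by known function with earlier results of the arrays known. They were tested within the fit over all genes. The list of other immediate-early and early-response genes (37 measured) held 11 that rose and 2 that fell in the hepatocyte condition against undifferentiated cells, or 29.7% and 5.41%, beside 7.62% and 7.7% of all genes, and its median difference was 0.53 against 0.07 over all genes. Egr2, a relative of Egr1, rose by 4.10 ± 0.74 (limma, adjusted p = 0.00213), from -5.84 ± 1.34 (SD, n = 4) to -1.74 ± 1.51. Klf2, a Krüppel-like factor, rose by 4.06 ± 0.65 (limma, adjusted p = 0.00103). Phlda1 fell by 1.51 on the log2 scale (SE 0.27, limma, adjusted p = 0.00214), and Plk2, a polo-like kinase, fell by 1.1 (SE 0.29, limma, adjusted p = 0.0191) but not past the threshold without array 3 of the condition (adjusted p = 0.0551). Of the 37, 3 rose and 0 fell in the cholangiocyte condition: Klf4, Ppp1r15a and Trib1, beside 0.785% and 0.597% of all genes (limma, 9 at an unadjusted p under 0.05, and 0 past the threshold in the authors' deposited table). Ppp1r15a, which ends the stress block on translation, rose by 1.8 ± 0.29 (limma, adjusted p = 0.00708; 0.0711 with only the 2 groups compared and 0.103 with the replicate block in that fit). Klf4 rose by 2.04 ± 0.43 (limma, adjusted p = 0.0349), and this call was lost in 11 of 18 alternatives, for Klf4 among them without any 1 undifferentiated array and without array 2 or 3 of the condition.

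Against primary hepatocytes, 27 of the 37 were higher and 6 lower in the hepatocyte condition, or 73% and 16.2%, beside 26% and 33.7% of all genes. Ccn2, a matrix-associated YAP target once called Ctgf, was higher by 10.41 ± 0.49 (limma, adjusted p = 4.84e-10), and Ier5l by 7.31 ± 0.34 (limma, adjusted p = 3.67e-10). Plk3 and Phlda1 were lower by differences of -3.09 ± 0.41 and -2.85 ± 0.27 (limma, adjusted p = 1.67e-05 and 7.28e-07). In the cholangiocyte condition 5 were higher and 5 lower than in primary cholangiocytes (13.5% each, beside 11.9% and 7.64% of all genes), with Plk3, a stress-responsive polo-like kinase, at -4.09 ± 0.53 (limma, adjusted p = 0.000125). Primary hepatocytes had 7 of 37 higher and 18 lower than undifferentiated cells (18.9% and 48.6%, beside 37.6% and 26.6% of all genes), and primary cholangiocytes had 6 higher and 3 lower (16.2% and 8.11%, beside 8.5% and 10.6%).

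Of 20 other leucine zipper factors that can pair with AP-1 proteins, 4 rose and 0 fell in the hepatocyte condition against undifferentiated cells (20% and 0%, beside 7.62% and 7.7% of all genes; limma, 8 at an unadjusted p under 0.05, and 5 higher and 0 lower in the authors' deposited table): Atf4, Atf5, Batf3 and Ddit3. Batf3 rose by 2.80 ± 0.34 (limma, adjusted p = 0.000119), where it was above background on only some undifferentiated arrays, and Atf5 by 2.70 ± 0.49 (limma, adjusted p = 0.00224). None of the 20 passed in the cholangiocyte condition (0 calls by limma, 3 at an unadjusted p under 0.05, and 0 in the authors' deposited table). Of all genes 1.38% passed in that comparison. Jdp2, a repressor that dimerises with Jun, was 7.31 ± 0.43 higher in the hepatocyte condition than in primary hepatocytes (limma, adjusted p = 4.4e-09), where only some arrays detected it.

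Upstream of AP-1, 4 of 27 kinases and serum response factor cofactors rose and 2 fell (Map2k6 and Mapk8) in the hepatocyte condition, or 14.8% and 7.41%, beside 7.62% and 7.7% of all genes. Map3k8, the kinase also called Tpl2, rose by 2.29 ± 0.36 (limma, adjusted p = 0.000978). Mapk8, the Jun kinase JNK1, fell by 1.40 (SE 0.34, limma, adjusted p = 0.0128) but was not past the threshold with normexp background correction (-0.54, adjusted p = 0.122) or the mean of its probes (-0.41, adjusted p = 0.242). Of the 27, 0 passed in the cholangiocyte condition (limma, 1 at an unadjusted p under 0.05, and 0 in the authors' deposited table). Of all genes 1.38% passed in that comparison. In the other 4 comparisons higher and lower counts were 10 and 10, 2 and 5, 9 and 9, and 4 and 2, in the order hepatocyte condition against primary hepatocytes, cholangiocyte condition against primary cholangiocytes, then undifferentiated cells with primary hepatocytes and with primary cholangiocytes. The shares of all genes, higher and lower, were 26% and 33.7%, 11.9% and 7.64%, 37.6% and 26.6%, and 8.5% and 10.6% in the same order.

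Feedback regulators (23 measured) include the phosphatases that switch MAP kinases off and proteins that destroy unstable mRNA. Against undifferentiated cells 3 rose and 4 fell in the hepatocyte condition, or 13% and 17.4%, beside 7.62% and 7.7% of all genes. Socs3, which stops cytokine signalling, rose by 4.17 ± 0.39 (limma, adjusted p = 1.65e-05) and Socs1 by 2.88 ± 0.45 (limma, adjusted p = 0.000893), while Dusp4, an ERK phosphatase, fell by 2.33 (SE 0.31, limma, adjusted p = 0.000283). Dusp10, Nfkbia and Tnfaip3 rose in the cholangiocyte condition and 0 fell, or 13% and 0%, beside 0.785% and 0.597% of all genes. By limma 6 of the 23 were at an unadjusted p under 0.05, and the authors' deposited table had 0 higher and 1 lower. Tnfaip3 rose by 1.58 ± 0.32 (limma, adjusted p = 0.0301). Its call was lost in 11 of 18 alternatives and that of Dusp10 (1.76 ± 0.40, limma, adjusted p = 0.0483) in 13, for both genes among them without undifferentiated array 1, 2 or 3 and without any 1 array of the condition. Against primary hepatocytes 16 of 23 were higher in the hepatocyte condition and 0 lower, beside 26% and 33.7% of all genes (limma, 16 at an unadjusted p under 0.05, and 19 higher and 1 lower in the authors' deposited table), and against undifferentiated cells primary hepatocytes had 2 higher and 15 lower (8.7% and 65.2%, beside 37.6% and 26.6%). Zfp36, which binds AU-rich mRNA, was higher in primary hepatocytes than in undifferentiated cells by 3.01 ± 0.47 (limma, adjusted p = 6.12e-05).

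Among 27 genes known as targets of AP-1 in other cells, the hepatocyte condition had 2 that rose and 11 that fell against undifferentiated cells, or 7.41% and 40.7%, beside 7.62% and 7.7% of all genes. The median of the list was -0.80 (-0.74 with genes not above background in a group at their bound), against 0.07 over all genes. The genes that fell included the matrix proteases Mmp13 (-5.54 ± 0.99, limma, adjusted p = 0.00206) and Mmp10 (-5.05 ± 0.81, limma, adjusted p = 0.00103), the growth factors Areg and Ereg, and Plau and Plaur of the urokinase system. Both proteases were above background on only some arrays of the condition. Timp1, an inhibitor of matrix proteases, rose by 2.49 ± 0.27 (limma, adjusted p = 5.12e-05). Il6 was 5.38-fold higher with undifferentiated arrays at their bound (limma, adjusted p = 0.0192). It was above background on no undifferentiated array and on only some arrays of the condition. The latter entered at their measured signal, so 5.38-fold is not a strict lower limit. Il6 was not past the threshold without undifferentiated array 2 or 3 or array 3 of the condition. For the cholangiocyte condition 1.38% of all genes passed. Of the 27 targets 0 passed (limma, 7 at an unadjusted p under 0.05, and 0 in the authors' deposited table). The list mean was 1.73 (1.58 to 1.88) there, 1.25 (1.12 to 1.37) in undifferentiated cells, -0.03 (-0.29 to 0.45) after hepatocyte differentiation, -0.01 (-0.04 to 0.03) in primary cholangiocytes and -3.41 (-3.62 to -3.08) in primary hepatocytes.

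Against the primary cells, 16 of the 27 targets were higher and 2 lower in the hepatocyte condition, and 10 higher and 1 lower in the cholangiocyte condition. These are 59.3% and 7.41% beside 26% and 33.7% of all genes, and 37% and 3.7% beside 11.9% and 7.64%. Timp1 was at least 2900-fold higher in the hepatocyte condition than in primary hepatocytes (limma, adjusted p = 8.2e-14). No primary hepatocyte array had it above background, and this bound, formed as for Fosl1, holds for the processed signals. Ccl2, a chemokine, was 7.39 ± 0.68 higher in the cholangiocyte condition than in primary cholangiocytes (limma, adjusted p = 7.24e-06), and Vegfa was at -2.41 ± 0.53 (limma, adjusted p = 0.006; 0.0588 without primary array 3). Primary hepatocytes had 4 of 27 higher and 20 lower than undifferentiated cells (14.8% and 74.1%, beside 37.6% and 26.6% of all genes), with Ccl2 at -12.69 ± 0.53 (limma, adjusted p = 1.12e-10), above background on only some primary hepatocyte arrays. Primary cholangiocytes had 1 higher and 9 lower (3.7% and 33.3%, beside 8.5% and 10.6%). Spp1 stands both in this list and among the cholangiocyte markers.

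**Figure D4:**
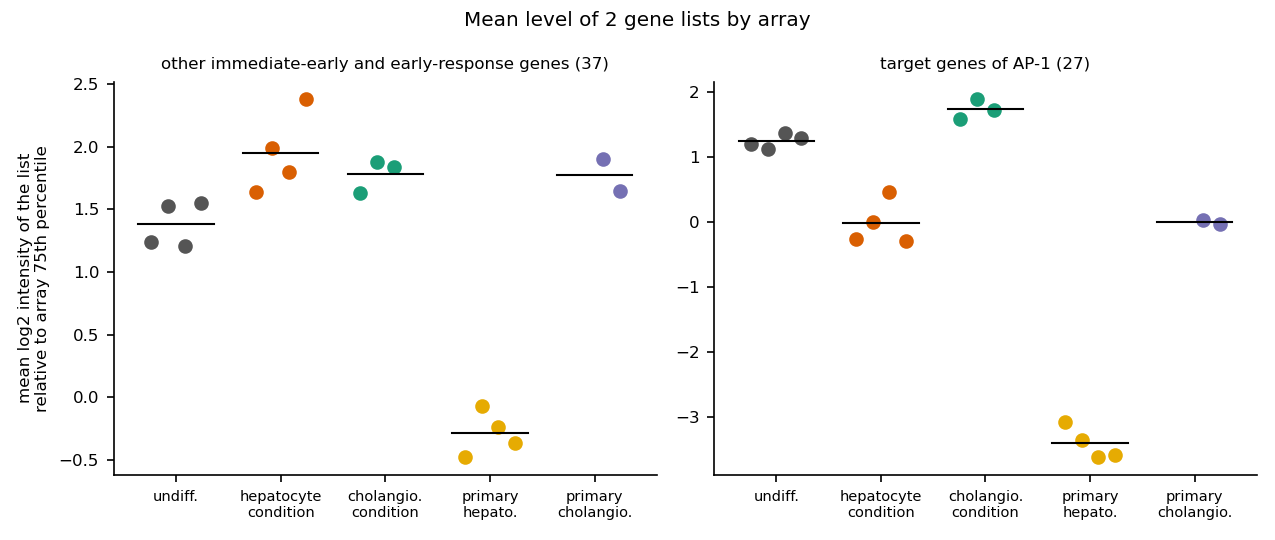
Mean level of 37 other immediate-early and early-response genes (left) and of 27 AP-1 target genes (right) on each array, as log2 intensity relative to the 75th percentile, with lines at the group means. Targets average 1.25 on undifferentiated arrays, against -0.03 for the hepatocyte and 1.73 for the cholangiocyte condition, while other immediate-early genes average 1.38, 1.95 and 1.78.

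Heat shock genes (16 measured) were followed as another stress response. Of these, 1 rose and 3 fell in the hepatocyte condition, or 6.25% and 18.8%, beside 7.62% and 7.7% of all genes. For the cholangiocyte condition 0 passed (limma, 2 at an unadjusted p under 0.05, and 0 in the authors' deposited table). Of all genes 1.38% passed in that comparison. Hspa5, a chaperone of the endoplasmic reticulum, rose by 0.87 ± 0.19 in the hepatocyte condition (limma, adjusted p = 0.00753) but not with median scaling (0.61, adjusted p = 0.139). Hspa1a was higher in primary cholangiocytes than in undifferentiated cells by 3 ± 0.88 (limma, adjusted p = 0.0293). Without primary array 3 the Hspa1a difference was 0.69 (adjusted p = 0.5), and the call was also lost without undifferentiated array 1, 2 or 4 (2.86, 2.97 and 2.98).

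**Figure D5:**
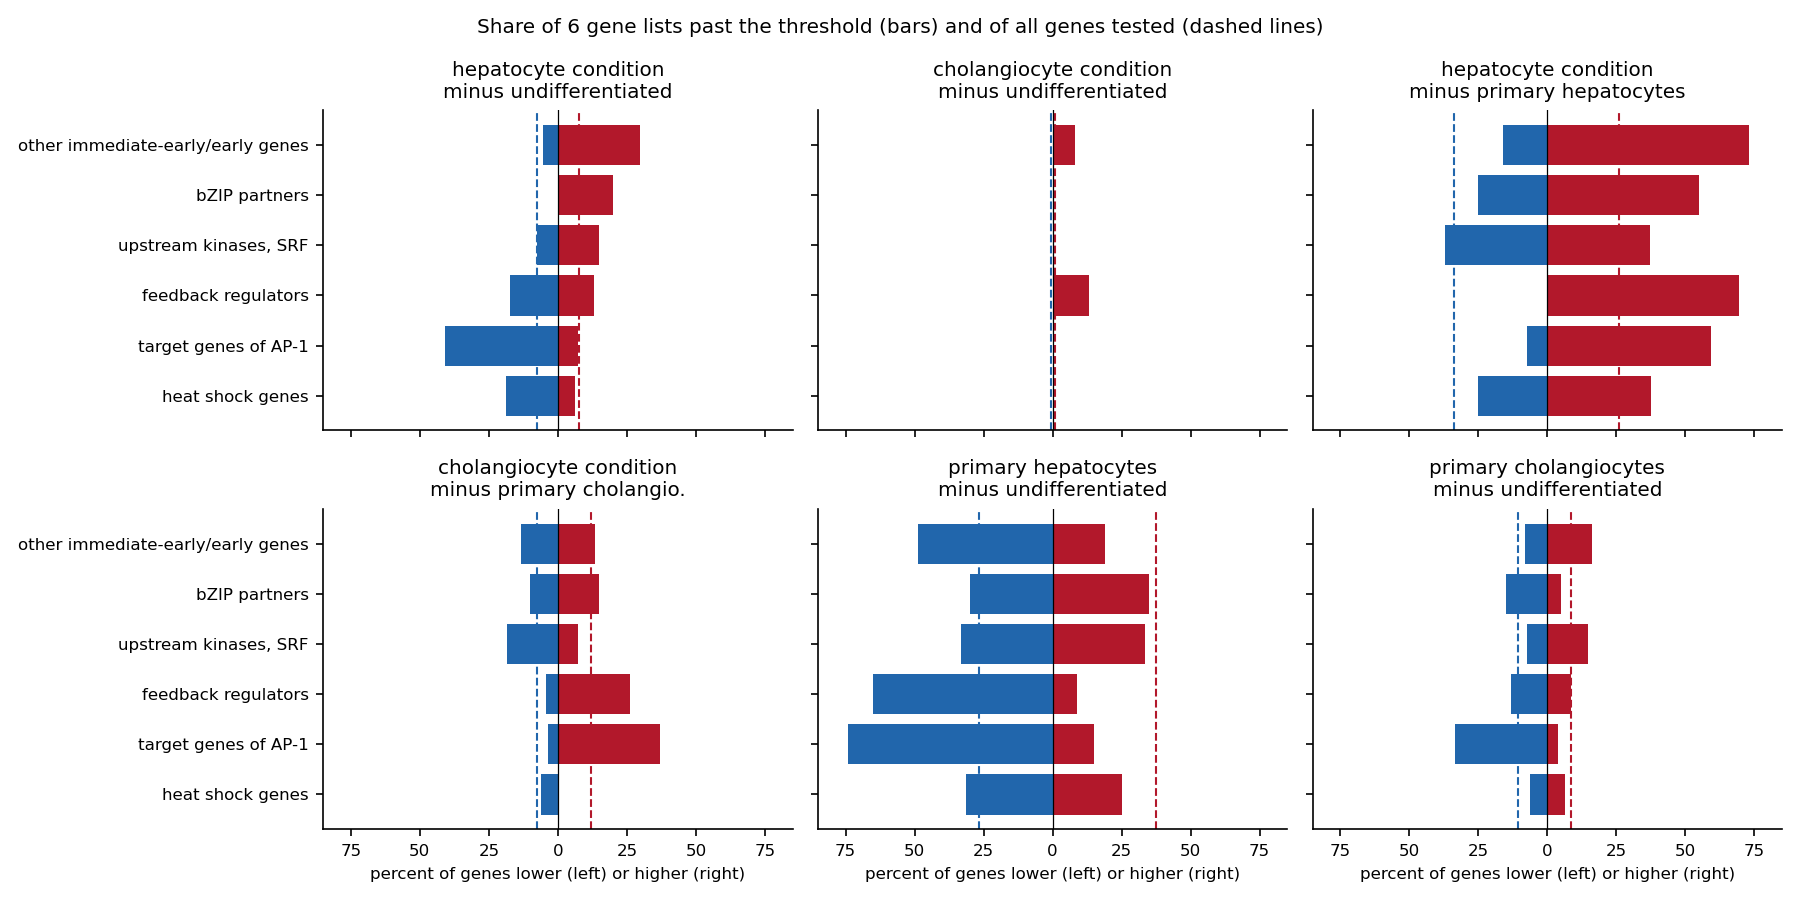
Percent of the genes of 6 lists that passed the threshold as higher (right of 0) or lower (left of 0) in each of 6 comparisons. Dashed lines are the shares over all 25977 genes. In the hepatocyte condition against undifferentiated cells 29.7% of other immediate-early genes are higher and 40.7% of AP-1 targets are lower, beside 7.62% and 7.7% of all genes.

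Among 13318 genes with a symbol that were well above background on every array, those whose levels over the 17 arrays were most like each member were named by Pearson r. Fosl1, Fosl2 and Ier3, whose span is set by primary hepatocytes, had the closest: Gm5171 (0.987), Cerk (0.982) and Tspan3 (0.990). Atf3 was most like Cux1 (0.954) and Klf4 (0.950), the latter from the list of early-response genes. Junb was most like Zmym3 and Nfkbiz (0.877 each) and Id2 (0.865), of which the last 2 are in that list. For Fos the closest was Atp2b1 (0.881), for Fosb Dnaaf4 (0.886), for Jun Zfp653 (0.877), for Jund Rph3al (0.881) and for Egr1 Paf1 (0.893). These r come from the best of many genes over arrays that share groups, and they are descriptions.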

How the data were processed

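Per the labels, total RNA (Trizol, then RNeasy) was amplified by WT-Ovation Pico before Cy3 labelling. The intensity values the authors deposited are processed spot signals of Agilent Feature Extraction 10.5.1.1 per the file headers (9.53 per the submitters' processing notes), background-subtracted and not scaled between arrays. The authors' deposited table gives a score, a signed fold change per probe, and a false discovery rate in percent; its test is not given in the sources used here, and it served as an alternative (5 percent).

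Of 44397 spots, 1377 were controls; spots of 39429 probes were averaged without outlier flags, and 135 probes were left out. Values are log2 intensity minus that of the array's 75th percentile. Probes well above background on at least 2 of 17 arrays were kept (32305), and the probe with the highest mean represents a gene. Names followed RefSeq (GRCm38.p6): 26412 probes by accession, 3854 by symbol, 735 by older symbol, 8428 as in the files. One limma 3.58.1 model (R 4.3.3) was fitted and tested on simulated data; figures used matplotlib 3.10.9. For genes outside the 10 members, the text gives those with the largest passing differences, up to 2 per list, comparison and direction, or a part of them. Hspa1a, Epcam, Krt19, Krt7, Alb and Ttr values by array were chosen after values were seen. Members, lists and tests were chosen with earlier results of these data known. Same-numbered arrays deviated together in every pair (r over 0.1) for the cholangiocyte condition and undifferentiated cells; in the other comparisons they did not in every pair, though number 4 of the hepatocyte condition and undifferentiated cells did (0.519). Some genes of the lists are counted and not reported by name here.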

Additional observations from a re-analysis of the deposited data

Results flagged for a closer look

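The level of Jun on array 4 of primary hepatocytes (3.03) lay apart from the other 3 arrays of its group (3.36 to 3.43). This was 1 of 30 groups of 4 arrays checked among the 10 genes, and chance gives about 1 in 20. Fosl1 was lower than undifferentiated cells on every array of the hepatocyte condition (-1.81) and higher on every array of the cholangiocyte condition (1.03). The difference in the cholangiocyte condition was not past the threshold, and with median scaling its arrays overlapped undifferentiated cells. Fosl2 was lower in primary hepatocytes (-3.34) and higher in primary cholangiocytes (0.69), and so was Atf3 (-3.54 and 2.69). The Fosl2 difference in primary cholangiocytes was not past the threshold, and with median scaling their arrays overlapped undifferentiated cells. These differences between lineages were not tested, and each pair shares the undifferentiated arrays.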

How the results depend on the processing

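Genes past the threshold in the cholangiocyte condition against undifferentiated cells numbered 359, and 181 with slide as a block, 222 with replicate number as a block, 104 with only the 2 groups compared and 152 in the authors' deposited table. In a fit of these 2 groups with the replicate block, chosen after seeing the data, 0 genes and 0 of the 10 members passed (limma, 4697 genes at an unadjusted p under 0.05), against 4 members in the model of all arrays. Members past the threshold fell from 4 to 2 with median scaling in the hepatocyte condition against undifferentiated cells, and rose from 5 to 8 with median scaling and 9 in the authors' deposited table against primary hepatocytes. For primary hepatocytes against undifferentiated cells that table gave 9 members instead of 5. With only the 2 groups compared, the cholangiocyte condition against primary cholangiocytes gave 1072 genes and 1 member instead of 5087 and 2, with 2147 and 1 in the authors' deposited table, and primary cholangiocytes against undifferentiated cells gave 1630 and 3 instead of 4948 and 6. With 1 array left out, genes and members ranged from 3100 to 3547 and 2 to 4 (hepatocyte condition against undifferentiated cells), 128 to 399 and 2 to 4 (cholangiocyte condition), 14021 to 15312 and 5 to 8 (hepatocyte condition against primary hepatocytes), 3663 to 4476 and 1 to 3 (cholangiocyte condition against primary cholangiocytes), 15296 to 16602 and 4 to 5 (primary hepatocytes against undifferentiated cells), and 3317 to 4520 and 3 to 6 (primary cholangiocytes). The cause of these shifts was not tested, beyond the smaller number of arrays where groups or arrays are left out. Creb5 reversed against primary hepatocytes with the mean of its probes (0.26 instead of -1.57). Among the 10 members, the replicate block ended the calls of Egr1 (hepatocyte condition), Fos (cholangiocyte condition) and Jun (primary cholangiocytes) against undifferentiated cells and of Fosb in the cholangiocyte condition against primary cholangiocytes, where Ier3 gained one, and it changed no other member's call. Signal near background limits Fosl1 and Ier3 in primary hepatocytes. The median difference of all genes was 0.44 for primary hepatocytes against undifferentiated cells, 0.00 with median scaling and -0.01 with quantile normalization.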
